A study of Mus musculus with 5 samples.

Results

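The miR-30 family was examined in extracellular vesicles (EVs) of murine mesenchymal stem cells (mMSC), with and without freeze-drying. Its members were chosen by name, as 9 mature strands of the family, named in the count table with the mouse prefix: the 5 guide strands mmu-miR-30a-5p, mmu-miR-30b-5p, mmu-miR-30c-5p, mmu-miR-30d-5p and mmu-miR-30e-5p, and the 4 opposite strands mmu-miR-30a-3p, mmu-miR-30c-2-3p, mmu-miR-30d-3p and mmu-miR-30e-3p. The prefix is left out from here on. They were 9 of the 1966 mature miRNAs of the count table, of which 517 had a count in any library. Each of the 9 was detected, and 7 had counts in all 5 libraries.

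The cells came from C57BL/6-GFP transgenic mice, and every library shared that source. Cells spent 48 h in a reduced serum medium, and small EVs were pelleted from the cleared and filtered medium at 100000 g for 110 min. Of the 5 libraries, 2 held unmodified EVs, called not freeze-dried here, and 3 held freeze-dried EVs. The latter were frozen at -80 °C in buffer with trehalose, dried overnight and left in water for 1 h. Trehalose at 25 mM is recorded for both groups. The labels also name several storage temperatures and buffers for the EVs, without tying any other one to a library of the unmodified group. They do not say whether replicates came from separate cultures. The p-values below therefore measure only the spread between these libraries, which may be technical.

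A miRNA hairpin is cut by Drosha and Dicer into a 5p and a 3p strand. The strand that stays in Argonaute, the guide, pairs with messenger RNAs mainly through its seed, bases 2 to 8 from its 5′ end. The miR-30 guide strands share one seed. In mesenchymal cells the family is known for holding back osteoblast differentiation through Runx2 and Smad1 and for favouring fat cell formation, and elsewhere for repressing Beclin 1, an autophagy protein, and Dll4, a Notch ligand.

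Of the 9 strands, 6 matched an entry of RefSeq's mature miRNAs (GRCm38.p6), and miR-30b-5p, miR-30d-5p and miR-30d-3p did not. The guide strands are shown with the seed in capitals, since the seed defines the family and the bases after it tell the members apart.
miR-30a-5p: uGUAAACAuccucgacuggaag
miR-30e-5p: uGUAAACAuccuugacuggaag
miR-30c-5p: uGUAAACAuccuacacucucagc
The first 12 bases of these 3 guides are identical. miR-30e-5p differs from miR-30a-5p by the single substitution C13U, counted from the 5′ end, so a sequencing error at that base turns one into the other. The seed GUAAACA was carried by 4 of the 1679 mature mouse miRNAs with an entry, these 3 and miR-384-5p.

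The 3p strands have 2 other seeds, again in capitals, and so would pair with other messenger RNAs than the guides.
miR-30a-3p: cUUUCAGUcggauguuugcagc
miR-30e-3p: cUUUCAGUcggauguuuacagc
miR-30c-2-3p: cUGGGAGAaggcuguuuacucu
miR-30c-1-3p: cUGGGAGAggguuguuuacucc
miR-30e-3p differs from miR-30a-3p by G18A. miR-30c-1-3p, which is outside the 9 members, is the opposite strand of the other miR-30c hairpin, and miR-30c-2-3p differs from it by G9A, U12C and C22U.

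The family comes from 6 hairpins at 3 places in the genome (GENCODE M21, GRCm38). On chromosome 1, on the plus strand, Mir30a lies at 23272269 to 23272339 in no other gene of that strand, and Mir30c-2 lies 19361 bp further on at 23291701 to 23291784, in an exon of the long noncoding RNA Gm27028. On chromosome 4, on the minus strand, Mir30c-1 (120769534 to 120769622) and Mir30e (120772606 to 120772697) lie in an intron of Nfyc, which encodes a subunit of the CCAAT-binding factor NF-Y. On chromosome 15, on the minus strand, Mir30b (68337415 to 68337510) lies in an exon of the processed transcript Gm26621, and Mir30d (68341208 to 68341289) lies in exons of the long noncoding RNA Gm20732 and of Gm37296, whose type the annotation leaves to be determined. miR-30c-5p is identical in Mir30c-1 and Mir30c-2, so its count cannot be divided between chromosomes 1 and 4. The Mir30a hairpin is shown with both mature arms in capitals, 5p first, as the arms are compared below.
Mir30a: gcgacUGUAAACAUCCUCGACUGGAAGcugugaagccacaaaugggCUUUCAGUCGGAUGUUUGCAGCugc

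Total counts per library ranged from 131507 to 2914305. Those with 500000 counts or more are named deep here (not freeze-dried replicate 1, freeze-dried replicates 1 and 2) and the other 2 shallow. The labelled cell type was checked against miRNA lists. All 7 mesenchymal miRNAs had counts and together took 20.8% to 21.2% of the counts in not freeze-dried and 15.1% to 17.0% in freeze-dried libraries, with no overlap. Other lists were far smaller: red cell 0.0758% to 0.170%, striated muscle 0.322% to 0.469%, and leukocyte, hepatocyte, endothelial, epithelial and neural lists at most 0.0403% in any library. The leukocyte sum was lower in the freeze-dried libraries, without overlap (0% to 0.00883% against 0.0114% to 0.0278%), and the epithelial sum higher (0.00208% to 0.00974% against 0%). These separations rest on few counts. The nearest leukocyte values, 0.00883% and 0.0114%, were those of the 2 shallow libraries. The lowest epithelial value, 0.00208%, lies below the share that 3 counts make of the 131507 in not freeze-dried replicate 2. The 0% of that library can therefore not be told apart from it. Of the 327 miRNAs tested below, 57 (17.4%) also separated the groups by level. The leukocyte miR-142a strands were at 0 in all libraries, as were 3 of the 5 epithelial and 2 of the 5 muscle markers. The part of other cells in the values of the family was not tested.

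The 5 guide strands took 4.93% (replicate 1) and 4.09% (replicate 2) of the counts without freeze-drying. They took 4.93%, 5.64% and 3.57% in freeze-dried replicates 1, 2 and 3, and group values below keep this replicate order. The means were 4.51% ± 0.59 (SD, n = 2) and 4.71% ± 1.05 (SD, n = 3), and the groups overlapped. The difference of the means turned to -0.21 points without not freeze-dried replicate 2 and to -0.26 points without freeze-dried replicate 2. The lower values were those of the shallow libraries in both groups, 3.57% and 4.09% against 4.93% to 5.64% in the deep ones. The exact 95% binomial intervals of the shallow libraries, which cover counting error only, ended at 3.65% and 4.19%, below those of the deep ones, which began at 4.88%.

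Shares and levels alike depend on what else a library holds. A let-7 share of 27.5% to 28.8% in not freeze-dried and 33.5% to 40.0% in freeze-dried libraries left less room for the rest in the freeze-dried ones. Counted without let-7, the guide strands took 6.92% and 5.64% against 8.23%, 8.48% and 5.86%, which still overlapped. The mean difference, freeze-dried minus not, was then 1.24 points in place of 0.21. Less RNA per vesicle and fewer vesicles cannot be told apart in such libraries.

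Levels of single strands are given as CPM (counts scaled to a common library size) after TMM normalization, which rescales each library so that most miRNAs keep the same level. Mature strands are of nearly equal length, so levels were not scaled by length. Whether strands of different sequence are counted equally well was not tested. Orders, ratios and shares across strands are therefore those of the counts. miR-30d-5p was the most abundant member, at 25101 and 22036 CPM in not freeze-dried and 26363, 32002 and 20138 CPM in freeze-dried libraries. It ranked number 9 of the 517 miRNAs by mean level. Its highest and its lowest library were both freeze-dried.

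miR-30a-5p, described as a repressor of Beclin 1, came next at 12774 and 9736 CPM in not freeze-dried and 14324, 12986 and 8630 CPM in freeze-dried libraries. For both guides the 2 shallow libraries were the lowest, at 20138 and 22036 CPM for miR-30d-5p and 8630 and 9736 CPM for miR-30a-5p. Deep and shallow libraries did not overlap for either guide, also on raw library totals. For miR-30c-5p, miR-30e-5p and miR-30b-5p they did overlap. The share of all miRNAs that separate by depth in this way is not given here, so the split cannot be called particular to these guides. The part of depth in these levels was not tested.

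miR-30c-5p, which is known to target Runx2 and the matrix growth factor Ccn2, stood at 2549 and 5917 CPM in not freeze-dried and 7605, 4240 and 6442 CPM in freeze-dried libraries. It was low in not freeze-dried replicate 1 and freeze-dried replicate 2, which are both deep, and higher in the other 3. miR-30e-5p, described as promoting fat cell formation, had the steadiest level of the guides: 3094 and 2763 CPM against 3338, 3917 and 3485 CPM. All 3 freeze-dried libraries lay above both others on this scale.

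miR-30b-5p was the rarest guide, at 518 and 674 CPM in not freeze-dried and 614, 928 and 335 CPM in freeze-dried libraries. It took the whole range within the freeze-dried group.

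**Figure D1:**
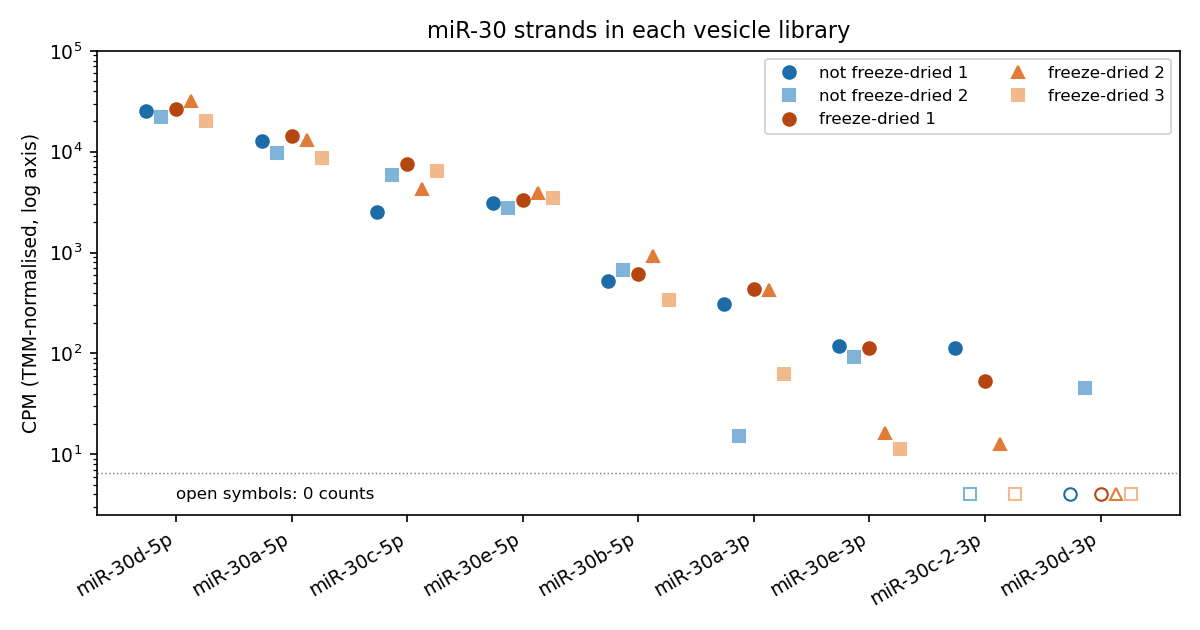
Level of each miR-30 strand in each library as TMM-normalised CPM on a log axis, with 1 symbol per library and open symbols under the dotted line for 0 counts. The guide strands keep their order in nearly every library, from miR-30d-5p at 20138 to 32002 CPM down to miR-30b-5p at 335 to 928 CPM, while the 3p strands scatter widely.

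In order of mean level the guides ran miR-30d-5p, miR-30a-5p, miR-30c-5p, miR-30e-5p and miR-30b-5p. The ranges of miR-30d-5p and miR-30a-5p over the 5 libraries did not meet, and neither did those of miR-30a-5p and miR-30c-5p or of miR-30e-5p and miR-30b-5p. The middle pair did meet: miR-30c-5p exceeded miR-30e-5p in 4 of 5 libraries, with not freeze-dried replicate 1 the other one. Below the guides came miR-30a-3p, miR-30e-3p, miR-30c-2-3p and miR-30d-3p, whose ranges all met those of their neighbours.

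The guides differed in how much they moved between libraries. The SD of log2 CPM over the 5 libraries was 0.19 for miR-30e-5p, 0.26 for miR-30d-5p, 0.31 for miR-30a-5p, 0.54 for miR-30b-5p and 0.62 for miR-30c-5p. Its median over the 88 miRNAs that averaged 1000 CPM or more and had counts in every library was 0.39. In that order miR-30e-5p was number 8, miR-30d-5p number 19, miR-30a-5p number 32 and miR-30c-5p number 73, counted from the steadiest. Counting error alone gives a coefficient of variation of 3.60% for miR-30c-5p in its library with the fewest counts, against 37.0% seen.

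Within the guides, miR-30d-5p held 50.5% to 59.2% of the counts and miR-30a-5p 22.1% to 29.0%. miR-30c-5p varied most. It held 5.79% (exact 95% binomial interval 5.57 to 6.01) and 14.4% (13.5 to 15.4) in not freeze-dried replicates 1 and 2, and 14.6% (14.4 to 14.7), 7.84% (7.70 to 7.98) and 16.5% (15.6 to 17.4) in the freeze-dried ones. The 2 low libraries belonged to different groups. miR-30e-5p held 6.39% to 8.93% and miR-30b-5p 0.859% to 1.72%, and no guide had shares that separated the groups.

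**Figure D2:**
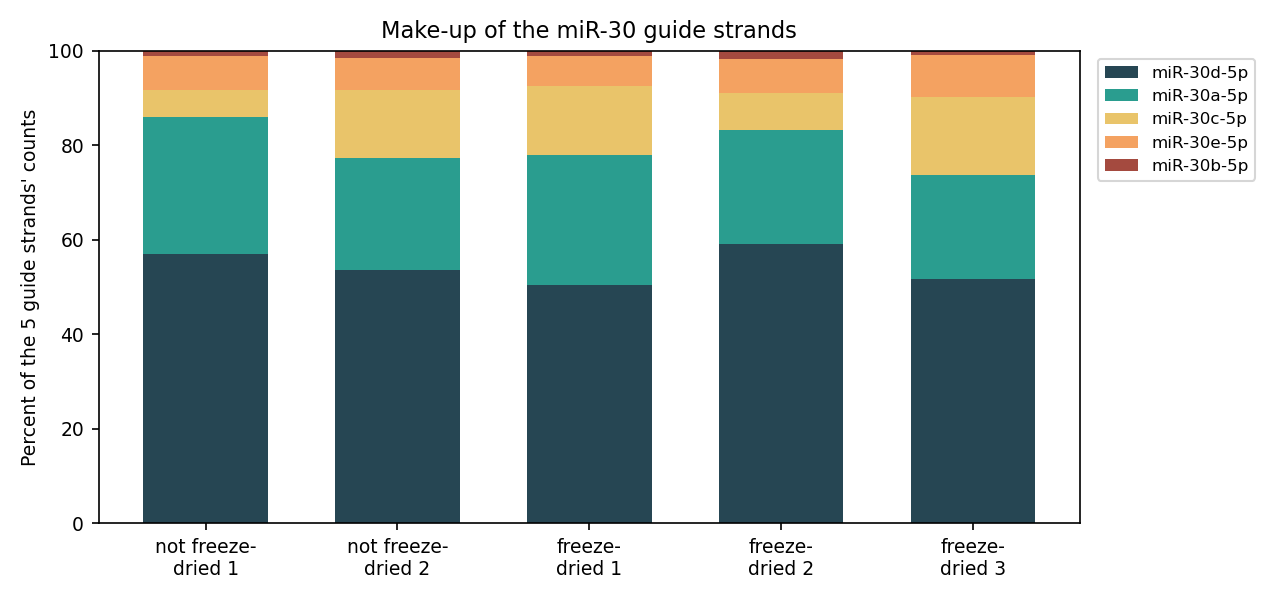
Share of each guide strand in the counts of the 5 guide strands, as stacked bars from 0 to 100%, with 1 bar per library. miR-30d-5p fills 50.5% to 59.2% of every bar, and the miR-30c-5p segment is thin in not freeze-dried replicate 1 (5.79%) and freeze-dried replicate 2 (7.84%).

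Guides of one place in the genome did not keep a fixed ratio. miR-30d-5p had 48.4 and 32.7 counts for each count of miR-30b-5p in not freeze-dried and 42.9, 34.5 and 60.0 in freeze-dried libraries, though their hairpins lie 3697 bp apart. The lowest and the highest of these values were those of the shallow libraries, with 88 and 59 counts of miR-30b-5p. Their intervals, which cover counting error only, were wide, at 26.5 to 40.9 and 46.4 to 79.0. In the deep libraries the ratio ran from 34.5 to 48.4. The ratio of miR-30d-5p to miR-30a-5p, from different chromosomes, ran from 1.84 to 2.46. Which of these ratios moved more beyond counting error was not tested. miR-30c-5p stood at 0.824 to 2.28 times miR-30e-5p, whose hairpin neighbours one of its 2 sources. None of these ratios separated the groups.

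The main comparison asked whether freeze-drying changed the miRNA content of the EVs. No member of the family passed the test: edgeR (quasi-likelihood F test, Benjamini-Hochberg adjustment over 327 miRNAs) called 0 of the 8 tested members, and 0 of all 327 miRNAs (0% called). At an unadjusted p under 0.05 it had 0 members and 9 miRNAs (2.75%). DESeq2 and limma-voom also called 0, with 16 and 15 miRNAs at an unadjusted p under 0.05. miR-30d-3p, with 6 counts in 1 library, did not pass the filter on low counts.

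With all 5 libraries in the unblocked edgeR fit, the 95% interval stayed under a 2-fold change either way for 3 of the 5 guides, as it did for 28 of all 327 miRNAs (8.56%) and for 28 of the 89 with a mean of at least 1000 CPM (31.5%). The log2 fold change, freeze-dried over not, of miR-30d-5p was 0.15, with an SE of 0.28 and an interval from -0.48 to 0.78. That of miR-30a-5p was 0.09 (SE 0.31, -0.60 to 0.78) and that of miR-30e-5p 0.29 (SE 0.30, -0.38 to 0.96). This bound depends on the fit: of 11 other edgeR fits, the interval stayed within 2-fold in 8 for miR-30d-5p, in 7 for miR-30a-5p and in 3 for miR-30e-5p. No guide stayed within it with the replicate block, where the upper limits of these guides were 1.16, 1.15 and 1.20, or when not freeze-dried replicate 1 (1.17, 1.28 and 1.40) or freeze-dried replicate 3 (1.07 to 1.21) was left out.

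The intervals of the other 2 guides were wider. For miR-30c-5p it was 0.53 (SE 0.42, -0.40 to 1.46), with an interval that reached past 2-fold. Its value rests on single libraries: it was 0.11 without not freeze-dried replicate 1 and 1.21 without not freeze-dried replicate 2. miR-30b-5p stood at 0.07 (SE 0.63, -1.34 to 1.49), and went to -0.31 when freeze-dried replicate 2 was left out and to 0.44 when replicate 3 was. Both had an edgeR adjusted p of 0.98, as did the other tested members.

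Of the 8 tested members 6 had a fitted fold change above 1, all 5 guides and miR-30a-3p, and 2 below, miR-30e-3p and miR-30c-2-3p. The median log2 fold change was 0.15 over the guides and 0.12 over the 8, beside 0.02 over all 327 miRNAs, of which 167 (51.1%) lay above 1. Within the deep libraries alone (1 not freeze-dried against 2 freeze-dried) the log2 ratio of mean CPM was 0.22 for miR-30d-5p, 0.10 for miR-30a-5p, 1.22 for miR-30c-5p, 0.23 for miR-30e-5p and 0.57 for miR-30b-5p. Within the shallow ones (1 against 1) it was -0.13, -0.17, 0.12, 0.33 and -1.01 in the same order, so that 3 of the 5 guides had opposite signs in the 2 depth classes. These ratios themselves have no test. The edgeR fit of the 3 deep libraries, with 1 not freeze-dried library among them, gave miR-30c-5p a log2 fold change of 1.19. With raw library totals in place of TMM, miR-30a-5p and miR-30b-5p fell below 1, at -0.041 and -0.012.

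miR-30e-5p was the only 1 of the 8 tested members whose CPM values did not overlap between the groups, higher in 3 of 3 freeze-dried libraries. Of all 327 miRNAs 29 did so in that direction (8.87%) and 57 in either direction (17.4%). The separation depends on the normalization. Scaled by raw library totals, as CPM, miR-30e-5p stood at 3461 and 2745 against 3152, 4083 and 3185, which overlap.

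**Figure D3:**
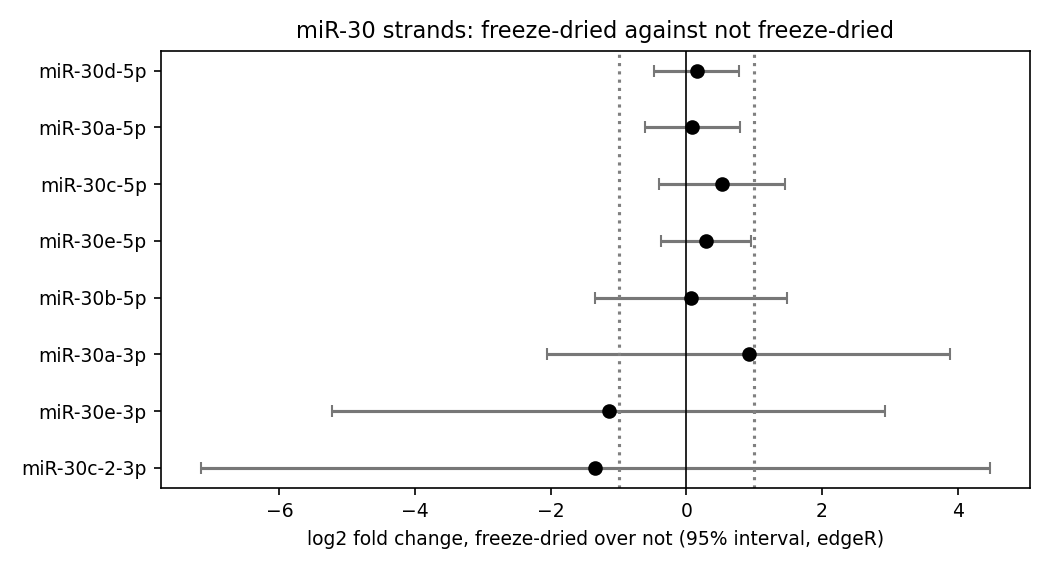
log2 fold change of each tested miR-30 strand, freeze-dried over not freeze-dried, as a dot with its 95% interval from edgeR, with dotted lines at a 2-fold change in each direction. In this fit of all 5 libraries the intervals of miR-30d-5p, miR-30a-5p and miR-30e-5p stay between the dotted lines, and those of the 3p strands run well beyond them.

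The 4 opposite strands together held 0.0602% and 0.0152% of the counts in not freeze-dried and 0.0569%, 0.0474% and 0.00676% in freeze-dried libraries. miR-30a-3p was the main one, with 313 and 2 counts in not freeze-dried and 1198, 1097 and 11 counts in freeze-dried libraries, or 307 and 15.3 CPM against 435, 426 and 62.5 CPM. Its 2 low values were those of the shallow libraries. The fitted log2 fold change of 0.92 had an SE of 1.33 and reached from -2.05 to 3.89, and it was -0.014 once the library with 2 counts, not freeze-dried replicate 2, was left out.

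miR-30e-3p split the libraries in another way. It had 121 and 12 counts in not freeze-dried and 312, 42 and 2 counts in freeze-dried libraries, or 119 and 91.8 CPM against 113, 16.3 and 11.4 CPM. Both not freeze-dried libraries and freeze-dried replicate 1 stood close together, and freeze-dried replicates 2 and 3 were low. The fitted log2 fold change of -1.15 had an SE of 1.82 and reached from -5.22 to 2.93. It was -2.88 when freeze-dried replicate 1 was left out, and -0.71 or -0.67 when replicate 2 or 3 was.

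As a share of the counts of both arms, the 3p strand of the miR-30a hairpin held 2.34% and 0.157% in not freeze-dried and 2.95%, 3.17% and 0.719% in freeze-dried libraries. The exact intervals of the shallow libraries, 0.0190% to 0.566% and 0.360% to 1.28%, lay below those of the deep ones, which began at 2.09%. The group means of 1.25% ± 1.55 (SD, n = 2) and 2.28% ± 1.36 (SD, n = 3) differed by less than the SD within either group. The exact two-sided permutation p was 0.40 (adjusted over 3 hairpins 0.60), where 2 libraries against 3 cannot give less than 0.2. Without not freeze-dried replicate 2 the mean 5p share was 0.0644 points higher in freeze-dried libraries, while with all 5 it was lower, at -1.03 points.

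For the miR-30e hairpin the 3p share was 3.69% and 3.22% in not freeze-dried and 3.28%, 0.414% and 0.325% in freeze-dried libraries. Freeze-dried replicates 1 and 2 are both deep, and their intervals, 2.94% to 3.66% and 0.299% to 0.559%, were far apart. The means were 3.45% ± 0.34 (SD, n = 2) and 1.34% ± 1.68 (SD, n = 3), with overlap and an exact two-sided permutation p of 0.40 (adjusted 0.60). Within a single library the miR-30a and miR-30e hairpins therefore differed: freeze-dried replicate 2 had the highest 3p share for miR-30a and a low one for miR-30e.

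miR-30d-3p was nearly absent beside the most abundant guide of the family. It had 6 counts in not freeze-dried replicate 2, the library with the fewest counts, which is 0.208% of both arms (exact interval 0.0764% to 0.452%). It had 0 counts in the other 4. There a limit of 3 counts allows a share of up to 0.0117% in not freeze-dried replicate 1 and up to 0.00413%, 0.00364% and 0.0847% in freeze-dried replicates 1, 2 and 3. The exact 95% intervals of the same libraries end somewhat higher, at 0.0144%, 0.00508%, 0.00447% and 0.104%. With counts pooled by group, and a floor of 3 counts in place of the 0 of the freeze-dried group, its level was 10.7-fold lower there. This ratio leaves out the counting error of the 6 counts, so it is no lower bound. Without not freeze-dried replicate 2 no count remains. The exact two-sided permutation p of the arm share was 0.80 (adjusted 0.80). miR-30b-3p, from the neighbouring hairpin and outside the 9 members, likewise had 7 counts in that library and 0 in the others.

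**Figure D4:**
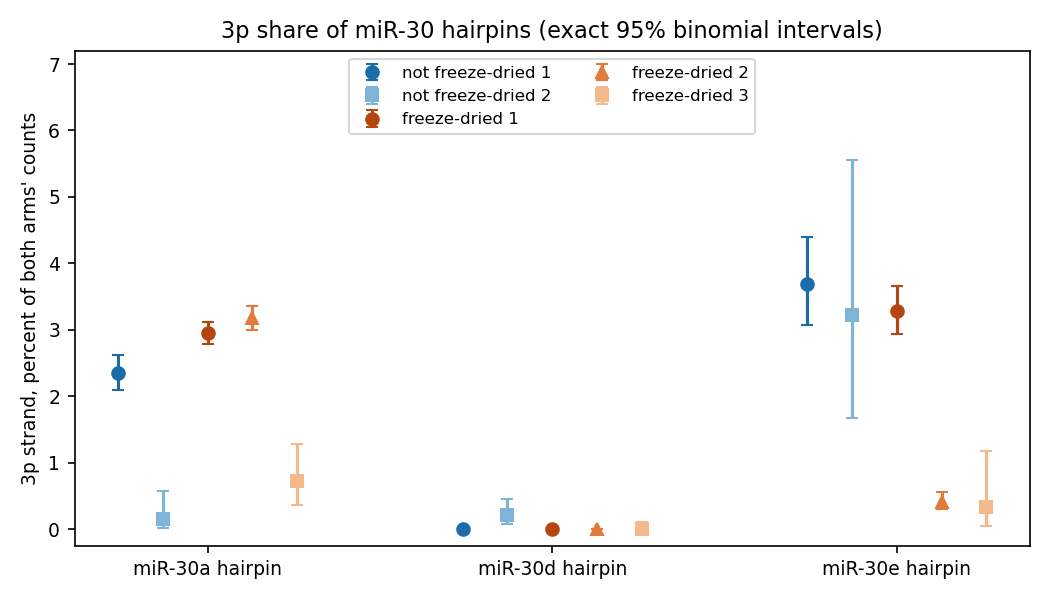
Counts of the 3p strand as a percent of both arms for 3 miR-30 hairpins, with 1 symbol per library and exact 95% binomial intervals. For miR-30a the 2 shallow libraries (0.157% and 0.719%) lie below the 3 deep ones (2.34% to 3.17%), and for miR-30e freeze-dried replicates 2 and 3 (0.414% and 0.325%) lie below the other 3.

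The 3p strands of the 2 miR-30c hairpins can be told apart, unlike their common guide. miR-30c-2-3p of chromosome 1 had 115 and 0 counts in not freeze-dried and 147, 33 and 0 counts in freeze-dried libraries. miR-30c-1-3p of chromosome 4 had 0 and 0 against 106, 91 and 0 counts. Both were found only in deep libraries. Not freeze-dried replicate 1 held the chromosome 1 strand alone, and freeze-dried replicates 1 and 2 held both.

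For miR-30c-2-3p the fitted log2 fold change was -1.34 (SE 2.60, interval -7.16 to 4.48), and without not freeze-dried replicate 1 no count is left in its group. miR-30c-1-3p had no count in that group at all. With counts pooled by group, and a floor of 3 counts in place of the 0 of that group, its level was 12.3-fold higher in the freeze-dried group. This ratio leaves out the counting error of the freeze-dried pool. That pool rests on freeze-dried replicates 1 and 2, as replicate 3 was at 0 like both libraries of the other group. edgeR did not call miR-30c-1-3p (adjusted p = 0.98), with an interval of its log2 fold change from -2.28 to 18.4.

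Outside the family, the miRNAs whose level ran most evenly with that of miR-30d-5p over the 5 libraries were miR-125b-5p, miR-181b-5p and miR-27b-3p. The measure was the SD of the log2 ratio of CPM to miR-30d-5p, at 0.13, 0.15 and 0.19, among 87 miRNAs that averaged 1000 CPM or more and had counts in every library, whose median was 0.44. miR-125b-5p stood at 1.41 to 1.78 times miR-30d-5p. Within the family miR-30a-5p had 0.18 and miR-30e-5p 0.21, numbers 3 and 6 of the 87, while miR-30c-5p had 0.75 and was number 78. The 5 points share library depth and normalization, and no test was made.

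Beside miR-30c, 10 other miRNAs are described as repressing Runx2, the transcription factor of the osteoblast lineage. All 10 had a row in the count table, though miR-137-3p, miR-217-5p and miR-338-3p had 0 counts in every library. miR-204-5p had 1 count, and miR-135a-5p and miR-205-5p were counted only in freeze-dried replicate 1. Of the 10 miRNAs, 4 passed the filter and 0 were called. Their fold changes lay above 1 for 3 of the 4 tested and below it for 1, and the median on the log2 scale was 0.24, beside 0.02 over all miRNAs tested. miR-23a-3p was by far the most abundant of them, at 19029 and 15232 CPM in not freeze-dried and 25981, 16955 and 15100 CPM in freeze-dried libraries (log2 fold change 0.18, SE 0.31, interval -0.52 to 0.87). It therefore stood above miR-30c-5p in every library. miR-218-5p had 231 and 597 against 589, 47.3 and 1484 CPM, and miR-133a-3p 210 and 276 against 181, 81.5 and 5.69 CPM. Their log2 fold changes of 0.77 (SE 1.22) and -1.42 (SE 1.44) were less than 1 SE from 0. The CPM of miR-133a-3p did not overlap between the groups and was lower in the freeze-dried one, as for 28 of all 327 miRNAs (8.56%). Its 5.69 CPM in freeze-dried replicate 3 is the level of 1 count.

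**Figure D5:**
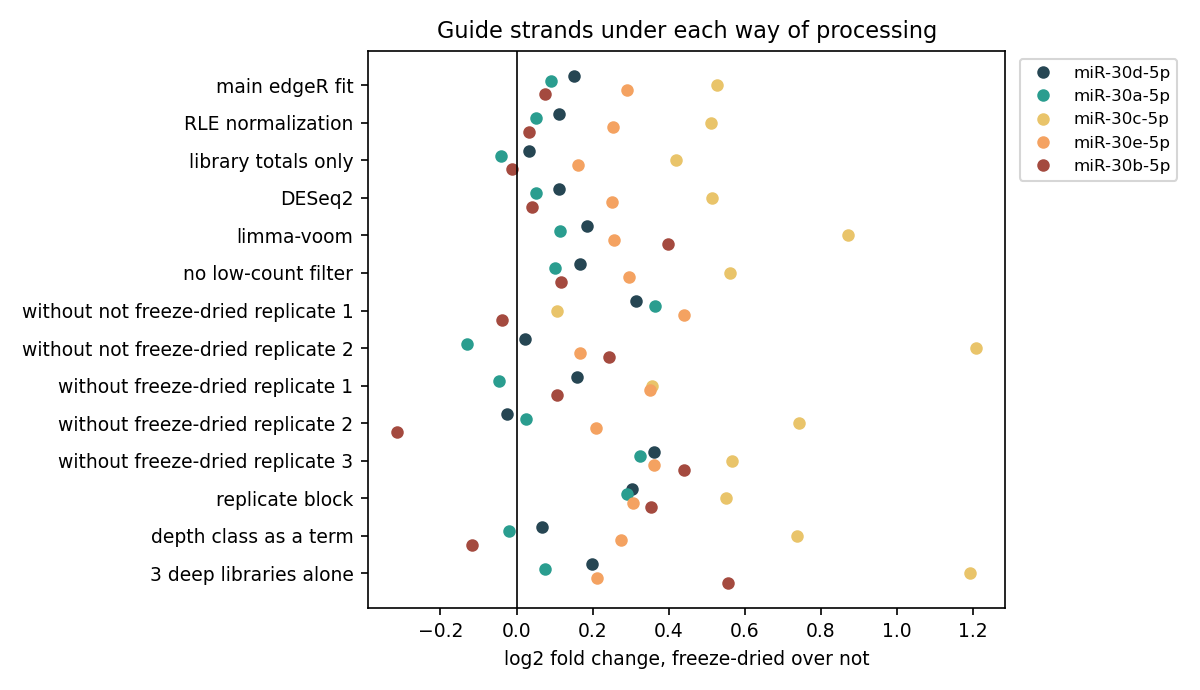
log2 fold change of the 5 guide strands, freeze-dried over not freeze-dried, under the main edgeR fit and 13 other ways of processing, with 1 dot per guide and row. miR-30c-5p and miR-30e-5p stay to the right of 0 in every row, while miR-30a-5p, miR-30b-5p and miR-30d-5p cross it.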

How the data were processed

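The authors deposited raw read counts per mature miRNA in 1 table with 1966 rows and 5 library columns, of which 0 rows named anything else. A NEXTFLEX small RNA kit was used and fragments of 126 to 169 bp were kept, per the labels' protocols. The build GRCm38, the aligner Bowtie 1.1.2 and the counter featureCounts 1.5.0-p1 are named in the submitters' processing notes, as are cutadapt 2.3 and bcl2fastq 2.20. The treatment of reads with several matches, of strand and of PCR duplicates is not given in the sources used here. Therefore reads of miR-30c-5p, which has 2 hairpins, and of miR-30a and miR-30e, which differ by 1 base on each arm, can have been split, repeated or lost.

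All 5 libraries, grouped by title, entered 1 robust quasi-likelihood fit with TMM and filterByExpr (R 4.3.3, edgeR 4.0.16), after the functions were tested on simulated counts, with a threshold of 0.05 on p adjusted over all tested miRNAs. The SE was the log2 fold change divided by the square root of F. Library totals were 912080 and 131507 (not freeze-dried) and 2914305, 2473178 and 192450 (freeze-dried), in replicate order. Shares are of raw totals. Binomial intervals are exact (Clopper-Pearson, scipy 1.17.1) and, like floors of 3 counts, cover counting error only. The alternatives were DESeq2 1.42.0, limma-voom (limma 3.58.1), other scaling, no filter, each library left out, the replicate block, depth class and deep libraries alone. The members, lists and the depth limit were chosen with earlier results of these data known. The miRNAs named are the members, the other miR-30 strands, miR-384-5p, the 3 non-members most like miR-30d-5p, and 3 of the Runx2 list by mean level.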

Additional observations from a re-analysis of the deposited data

How the results depend on the processing

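None of the tested members was called under the 13 alternatives, with lowest adjusted p-values among them of 0.73 (3 deep libraries) to 0.999. miR-30c-5p, miR-30e-5p and miR-30e-3p kept their direction under all 13. miR-30a-5p turned to -0.041 on library totals and -0.020 with depth class as a term, and miR-30b-5p to -0.012 and -0.12. Without 1 library the log2 fold change ran from -0.13 to 0.36 for miR-30a-5p, -0.31 to 0.44 for miR-30b-5p, -0.025 to 0.36 for miR-30d-5p, -0.014 to 4.39 for miR-30a-3p and -2.34 to 7.98 for miR-30c-2-3p. The last one was 0.85 with the replicate block, which moved no member past the threshold but made the count of all miRNAs called lower 4 in place of 0. That count was 1 in the 3 deep libraries alone. The 2 shared replicate numbers gave correlations of deviations of 0.17 and -0.12, which cannot show a pairing. Intervals of miR-30d-5p, miR-30a-5p and miR-30e-5p all stayed within 2-fold in 3 of 11 other edgeR fits, and none did in 3. The difference in guide share of 0.21 points was 1.24 without let-7 in the denominator, 0.36 in deep and -0.52 in shallow libraries, and -0.26 to 0.78 without 1 library. That of miR-30e-5p within the guides, 0.65 points, was 2.21 in shallow and -0.21 in deep libraries and -0.055 without freeze-dried replicate 3, and that of miR-30b-5p, -0.16, was 0.27 in deep and -0.78 in shallow ones. The difference in 5p share ran from -2.12 to 0.0644 points for miR-30a and from 0 to 0.208 for miR-30d without 1 library, and was 0 for miR-30d in the deep ones. Fits without a not freeze-dried library, and that of the deep ones, leave 1 such library, whose spread is taken from the freeze-dried ones. At the totals of the shallow libraries 3 counts are 22.8 and 15.6 CPM, so a 3p strand with 0 counts there can have had a level up to these values. Lower levels were seen there at 2 counts, for miR-30a-3p in not freeze-dried replicate 2 and for miR-30e-3p in freeze-dried replicate 3.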

Other observations

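2 more entries belong near the family by sequence. miR-384-5p carries the miR-30 seed (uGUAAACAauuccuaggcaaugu, seed in capitals) and had 0 counts in all 5 libraries. miR-30f lies on the strand opposite to miR-30e, overlapping miR-30e-3p by 19 bases, and its bases 2 to 8 are shifted by 1 base against the family's seed (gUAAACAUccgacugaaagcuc). It had 1 count, in freeze-dried replicate 2, where miR-30e-3p had 42. Whether the counting used strand is not given in the sources used here, so it is not known here whether reads of the 2 entries were kept apart.

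Over all 188 pairs of arms with at least 100 counts in the 5 libraries together, the rarer arm held a median of 0.206% of the pooled counts. The 3p arms of miR-30a (2.87%) and miR-30e (2.05%) lay above that median, and those of miR-30d (0.00321%) and miR-30b (0.147%) below it. Of the 188 pairs, 121 had a lower share than miR-30a, 117 than miR-30e, 92 than miR-30b and 82 than miR-30d. The rarer arms of the 184 pairs outside the family held 4.43% and 4.82% of both arms' counts without freeze-drying and 4.21%, 5.83% and 5.76% with it, in replicate order. In the shallow libraries this summed share, 4.82% and 5.76%, lay within the 4.21% to 5.83% of the deep ones, while that of miR-30a-3p lay below. The sum is weighted by counts, so abundant pairs set it. How many single pairs split by depth was not counted, so the split cannot be called particular to miR-30a-3p. No test was made.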
